A study of Campylomormyrus compressirostris and Campylomormyrus rhynchophorus and Campylomormyrus compressirostris x Campylomormyrus rhynchophorus with 15 samples.

Results

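*KCNA7A_1* and *KCNQ5A* are gene models for subunits of voltage-gated potassium channels in the electric organ of *Campylomormyrus*, African weakly electric fish. The members are these 2 gene models, chosen by name, of 34492 gene models counted in every library, and both were among the 18489 genes tested. The names come from the tables of the study, in which *KCNA7A_1* is the model maker-ptg000028l-snap-gene-81.10 and *KCNQ5A* the model maker-ptg000697l-snap-gene-6.107. The study had picked both as candidates with these libraries and adult ones, so the direction of their differences here is not independent evidence.

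RNA-seq was done on the electric organ of 15 juvenile fish, 1 library per fish. Of these, 5 were *C. compressirostris* (*com*), 5 were *C. rhynchophorus* (*rhy*) and 5 were first-generation (F1) hybrids with a *com* father and a *rhy* mother. The labels give every fish a length of 6 cm, and the fish were bred and raised in captivity. By the study's account the electric organ discharge (EOD) of juvenile hybrids is as short as that of *com*, while that of juvenile *rhy* is longer. The study adds that some juvenile hybrids had an EOD that was slightly lengthened, and which hybrids here these were was not given. The ages, and how many parents or clutches the fish of a group came from, were not given in the sources used here. Each fish has its group and number as its name, so that comrhy59 is a hybrid.

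The electrocyte is a cell derived from muscle that fires an action potential, and the summed potentials of all electrocytes make the EOD. Inward sodium current depolarizes the membrane, and outward potassium current through voltage-gated potassium channels brings it back to rest. Genes of the *KCNA* family encode Shaker-type subunits, which open within the time of a single action potential. *KCNA7* is known from heart and skeletal muscle of mammals, and a copy of it, *kcna7a*, is known as a strongly expressed channel of the mormyrid electric organ. Genes of the *KCNQ* family encode channels that open slowly and do not inactivate. *KCNQ5* is best known from the neurons of mammals, where it contributes to the M-current that steadies the resting membrane.

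The libraries summed to 8346594 to 11549627 expected counts for *com*, 12973363 to 19259314 for the hybrids and 12502127 to 13927972 for *rhy*. In the *com* libraries other than com104, 9.70 to 19.3% of all counts fell on a single gene, against 2.64 to 5.89% in com104 and the other groups. Levels are therefore given first as CPM, counts relative to the library total after TMM scaling. Levels of different genes are compared in TPM, which also correct for length. *SCN4AA*, the sodium channel of the electric organ, was taken here as the electrocyte marker and was at 372 to 2215 TPM in all 15 fish. The study also names genes raised in adult electric organs over skeletal muscle, *KCNJ2* among them, which were not used as markers. RNA came from whole tissue, so fewer cells of a type and less RNA per cell cannot be told apart. Reads of *rhy* and hybrid fish were assigned to gene models of *com*. The share of reads lost to differing sequence was not measured, and its part in any lower value in *rhy* was not tested.

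The comparisons asked how the level of each channel differed between the 2 species and where the hybrid, which has the short juvenile EOD, lay between them. *KCNA7A_1* was high in *com*, lower in the hybrids and lowest in *rhy*. Its level was 1147, 854, 1010, 1151 and 954 CPM in com104, com121, com123, com124 and com125. It was 217, 257, 279, 249 and 245 CPM in comrhy59, comrhy60, comrhy61, comrhy62 and comrhy63. In *rhy* it was 31.8, 23.7, 37.2, 27.4 and 43.4 CPM in rhy49, rhy50, rhy51, rhy52 and rhy53. No fish of a group overlapped another group, and every *com* fish was above every hybrid and every hybrid above every *rhy* fish. How many of all genes tested separate without overlap was not counted, here or for the separations reported below. Among the named genes below, *GRIA3* and *ATP13A2* also did so between all groups.

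The mean level of *KCNA7A_1* was 1023 ± 128 CPM in *com* (SD, n = 5), 249 ± 22.5 CPM in the hybrids (SD, n = 5) and 32.7 ± 7.83 CPM in *rhy* (SD, n = 5). The 333 to 633 expected counts per *rhy* library leave little counting error, but they include RSEM's division of reads shared with another model, described below. Among all gene models of a library, ordered by TPM, *KCNA7A_1* took rank 50 to 70 in *com*, 269 to 393 in the hybrids and 2163 to 3761 in *rhy*.

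Between *rhy* and *com*, *KCNA7A_1* fell by 4.97 on the log2 scale (SE 0.17, 95% interval -5.33 to -4.60), or 31.3-fold lower in *rhy*. The adjusted p was 7.37e-11 by the quasi-likelihood test of edgeR, adjusted after Benjamini and Hochberg. It had the smallest p of the 18489 genes tested in this contrast and the rank 337 by size of change. A call required a log2 fold change beyond 1 together with an adjusted p below 0.05, and 13.1% of all genes were called lower in *rhy* than in *com*.

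Between the hybrids and *com*, *KCNA7A_1* fell by 2.04 (SE 0.15, 95% interval -2.36 to -1.71, adjusted p = 4.17e-07 by the same edgeR test), where 4.42% of genes were called lower in the hybrids. Between *rhy* and the hybrids it fell by 2.93 (SE 0.16, 95% interval -3.27 to -2.60, adjusted p = 2.49e-08), where 7.64% of genes were called lower in *rhy*. *KCNA7A_1* was thus called in every pairwise contrast. Of 2421 genes called lower in *rhy* than in *com*, 154 were also called lower in the hybrids than in *com* and lower in *rhy* than in the hybrids, 0.833% of the genes tested. These contrasts share libraries and are not independent of each other.

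**Figure D1:**
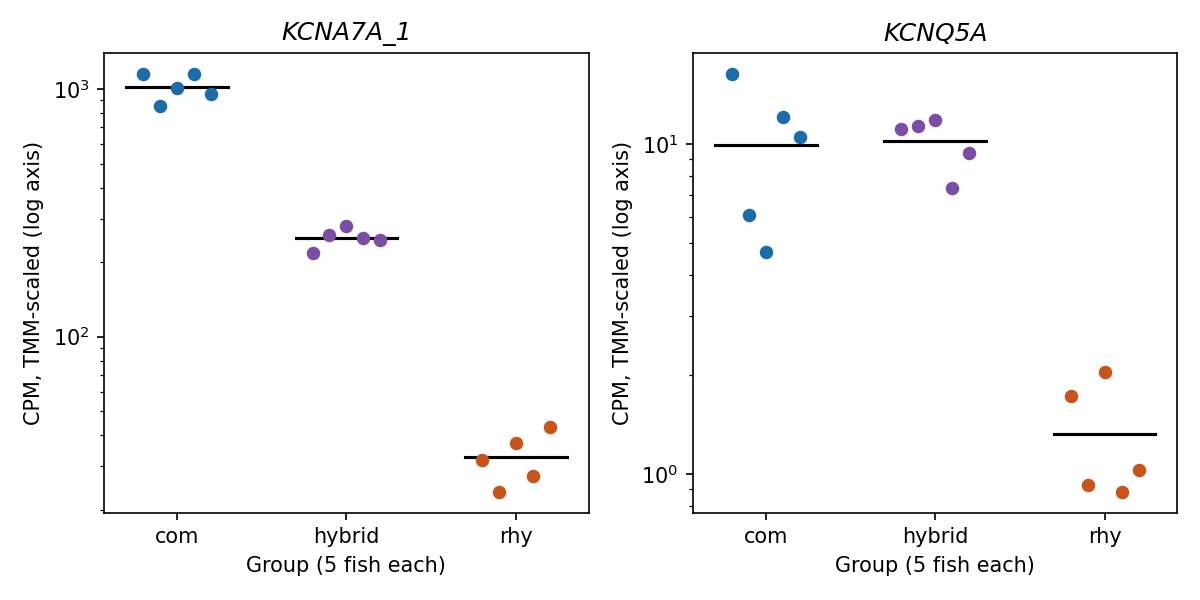
CPM (log axis) of *KCNA7A_1* and *KCNQ5A* in each of 15 fish, with the mean of each group as a line. *KCNA7A_1* separates into 3 levels with means of 1023, 249 and 32.7 CPM, while the hybrids lie within the range of *com* for *KCNQ5A* and all *rhy* fish lie below both.

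The expected counts of *KCNA7A_1* carry fractions in 15 of 15 libraries, which arise when RSEM divides reads that map to more than 1 gene model. The counts of *KCNQ5A* carry a fraction in 0 libraries. A search of the 1801 models with fractional counts in at least 4 libraries found 1 model, maker-ptg000028l-snap-gene-81.8, whose fraction completed that of *KCNA7A_1* to a whole number (within 0.025 counts) in 15 of 15 libraries. The next best model did so in 4. This read-sharing model has no name in the sources, lies on the same contig by its identifier, and is 1500 bases long against 1494 for *KCNA7A_1*. How many reads the 2 models share cannot be read from the files, so the division between them is RSEM's estimate.

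The read-sharing model was at 2022, 1041, 1211, 1159 and 1163 CPM in com104, com121, com123, com124 and com125. It was at 1042 to 1268 CPM in the hybrids (median 1085) and at 521 to 716 CPM in *rhy* (median 633). The *com* and hybrid ranges overlapped, and every *rhy* fish was below both. It fell by 1.07 between *rhy* and *com* (95% interval -1.41 to -0.73, adjusted p = 6.40e-05, edgeR). Between the hybrids and *com* the difference was -0.23 (95% interval -0.56 to 0.11, adjusted p = 0.331) and did not pass.

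Of the TPM of both models together, *KCNA7A_1* held 36.3, 45.2, 45.6, 49.96 and 45.2% in com104, com121, com123, com124 and com125. It held 17.1, 17.9, 21.2, 18.8 and 16.3% in the hybrids comrhy59 to comrhy63 and 4.67, 3.62, 5.68, 5.02 and 5.73% in rhy49 to rhy53. The log2 ratio of *KCNA7A_1* to the read-sharing model was -0.33 ± 0.30 in *com*, -2.17 ± 0.18 in the hybrids and -4.28 ± 0.28 in *rhy* (SD, n = 5 each). Each of the 3 pairs of groups was fully apart (exact two-sided permutation test, p = 0.00794, adjusted p = 0.00794 over 3 comparisons), the smallest p that 5 fish against 5 allow. This comparison was added after the sharing of reads was seen.

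Summed with the read-sharing model, a quantity that does not depend on how shared reads were divided between these models, the differences were smaller than for *KCNA7A_1* alone. The sum also holds the read-sharing model's own reads, and that model held the larger part of the summed TPM in every fish. The smaller differences therefore do not show how far the division of reads matters. The sum was 1895 to 3169 CPM in *com*, 1275 to 1513 CPM in the hybrids and 549 to 760 CPM in *rhy*, without overlap between groups. It fell by 1.82 between *rhy* and *com* (SE 0.14, 95% interval -2.11 to -1.54, adjusted p = 6.21e-08, edgeR) and by 1.06 between *rhy* and the hybrids (SE 0.13, adjusted p = 4.04e-05). Between the hybrids and *com* the change of -0.77 (SE 0.13, adjusted p = 0.000825) lay inside the fold limit and was not called.

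**Figure D2:**
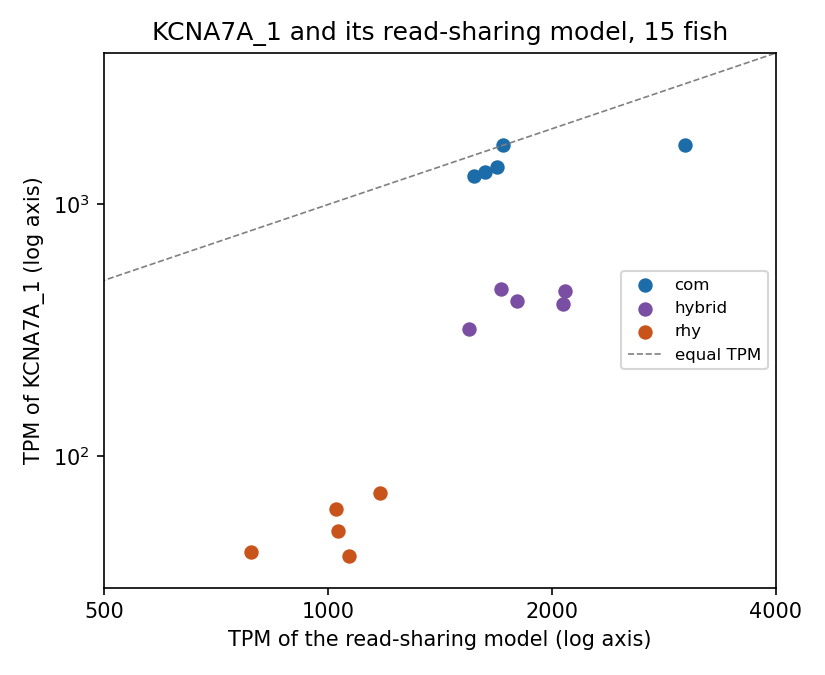
TPM of *KCNA7A_1* against TPM of the model it shares reads with, in each of 15 fish (both axes logarithmic), with a dashed line at equal TPM. The *com* fish lie at or under the line, the hybrids and *rhy* fish step away from it, and com104 stands to the right of the other *com* fish.

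*KCNQ5A* was a low transcript that was lower in *rhy* than in both other groups. Its counts were whole numbers throughout and few. They were 35 to 178 in *com* (median 89), 151 or more in 4 of 5 hybrids (median 165), and 23, 13, 29, 11 and 15 in rhy49 to rhy53. The smallest of these, 11 counts in rhy52, has an exact 95% Poisson interval of 5.49 to 19.7 counts, and the largest *rhy* count, 29 in rhy51, one of 19.4 to 41.6. Such intervals cover counting error only.

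Scaled to CPM, *KCNQ5A* was at 16.3, 6.09, 4.69, 12.1 and 10.5 in com104, com121, com123, com124 and com125. It was at 11.1, 11.3, 11.8, 7.34 and 9.39 CPM in comrhy59 to comrhy63, and at 1.73, 0.924, 2.03, 0.884 and 1.03 CPM in rhy49 to rhy53. The hybrids lay within the range of *com*, and all 5 *rhy* fish were below every other fish. The share of all genes tested with such a separation of *rhy* was not counted. The mean was 9.93 ± 4.67 CPM in *com*, 10.2 ± 1.82 CPM in the hybrids and 1.32 ± 0.53 CPM in *rhy* (SD, n = 5 each). The spread was widest in *com*, with a coefficient of variation of 47.1% against 17.9% in the hybrids and 39.9% in *rhy*. For *KCNA7A_1* these coefficients were 12.5%, 9.02% and 23.9%.

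Between *rhy* and *com*, *KCNQ5A* fell by 2.90 on the log2 scale (SE 0.34, 95% interval -3.63 to -2.18), or 7.49-fold lower in *rhy*. The adjusted p was 5.91e-06 (edgeR). Between *rhy* and the hybrids it fell by 2.93 (SE 0.34, 95% interval -3.66 to -2.21, adjusted p = 1.90e-05), or 7.65-fold lower in *rhy*. Between the hybrids and *com* the difference was 0.03 (SE 0.30, adjusted p = 0.956). Its 95% interval of -0.61 to 0.67 lies inside the fold limit. Without com104, the *com* fish with the highest *KCNQ5A*, the difference between *rhy* and *com* was -2.65 (adjusted p = 9.75e-06). This pattern, lower in *rhy* than in *com* and the hybrids with no call between those, was met by 851 genes, 4.60% of those tested.

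The difference between *rhy* and the mean of the groups with a short juvenile EOD, *com* and hybrids, was -3.95 for *KCNA7A_1* (SE 0.16, adjusted p = 1.51e-10, edgeR) and -2.92 for *KCNQ5A* (SE 0.32, adjusted p = 3.54e-06). Summed with the read-sharing model, the difference for *KCNA7A_1* was smaller, at -1.44 (SE 0.12, adjusted p = 2.8e-07, edgeR). The value of -3.95 uses the counts as RSEM divided them. The sum also holds the read-sharing model's own reads, so the part of that division in the size of -3.95 was not tested. In this contrast 10.2% of genes were called lower in *rhy*. EOD duration and species cannot be told apart in it, since *rhy* is the only group with the longer juvenile EOD.

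The members differed in where the hybrid stood. For *KCNQ5A* the hybrids were 1.48 above the parental mean of log2 values (SE 0.26, 95% interval 0.93 to 2.03, adjusted p = 0.00212, edgeR), where 3.20% of genes were called higher. For *KCNA7A_1* the hybrids were 0.45 above that mean (SE 0.12, 95% interval 0.18 to 0.71, adjusted p = 0.0283), which is inside the fold limit and was not called. For the sum of *KCNA7A_1* with its read-sharing model they were 0.15 above it (SE 0.11, adjusted p = 0.435, edgeR), which did not pass.

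On the log2 scale, with *com* at 0 and *rhy* at 1, the hybrids lay at 0.41 ± 0.03 for *KCNA7A_1* and at -0.06 ± 0.10 for *KCNQ5A* (SD, n = 5). On the scale of CPM itself they lay at 0.78 ± 0.02 for *KCNA7A_1*, since their mean of 249 CPM was under the parental mean of 528 CPM in 5 of 5 hybrids. With the counts of *KCNA7A_1* as RSEM divided them, the hybrids were thus on opposite sides of the parental middle on the scales of ratio and amount. The difference on the scale of ratio was not called. Summed with the read-sharing model, the mean was 2342 CPM in *com*, 1377 CPM in the hybrids and 662 CPM in *rhy*. Where each hybrid stood against the parental mean of that sum was not computed. Both positions of *KCNA7A_1* given here use the counts as RSEM divided them, and the part of that division in them was not tested. For *KCNQ5A* the hybrids' mean of 10.2 CPM was above the parental mean of 5.62 CPM on the scale of CPM as well, in 5 of 5 hybrids.

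**Figure D3:**
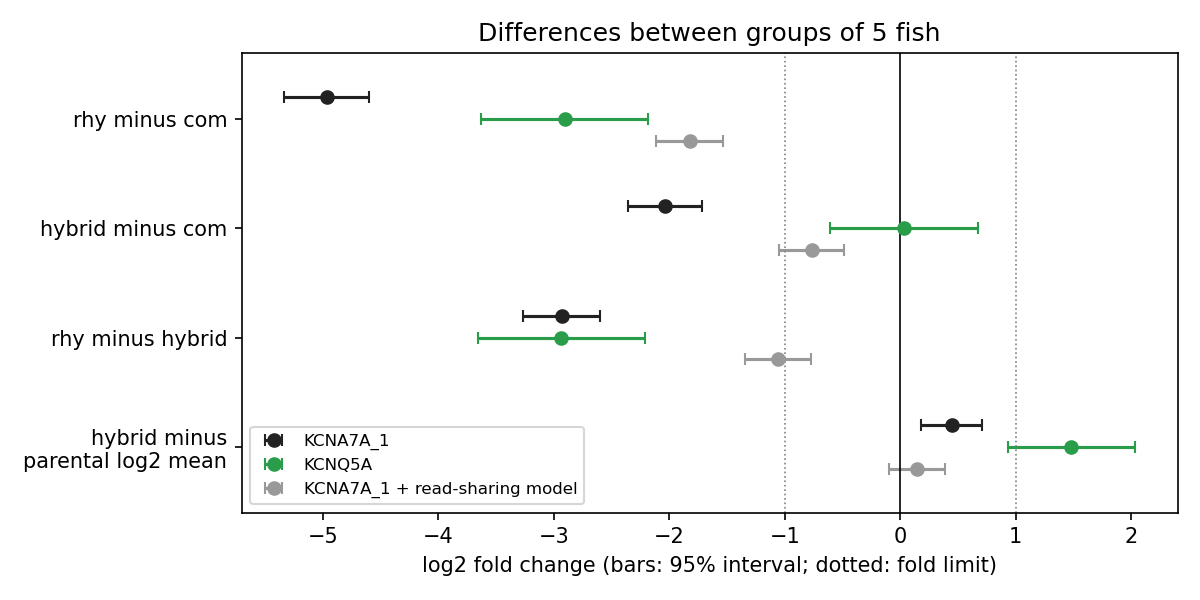
Log2 fold changes with 95% intervals for *KCNA7A_1*, *KCNQ5A* and the sum of *KCNA7A_1* with its read-sharing model, in 4 contrasts of groups of 5 fish. The intervals of *KCNQ5A* exclude 0 except between the hybrids and *com*, and the sum lies nearer to 0 than *KCNA7A_1* in every contrast shown.

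Per unit of length, *KCNA7A_1* was far above *KCNQ5A* in every fish. *KCNA7A_1* was at 1293 to 1722 TPM in *com*, 319 to 460 TPM in the hybrids and 40.1 to 71.3 TPM in *rhy*. *KCNQ5A* was at 3.86 to 14.4, 7.16 to 11.6 and 0.790 to 1.97 TPM in these groups. The TPM of *KCNA7A_1* was 120 to 366 times that of *KCNQ5A* in *com*, 33.5 to 57.9 times that in the hybrids and 31.3 to 72.1 times that in *rhy*. With the counts as RSEM divided them, the *com* ratios were above all others and those of hybrids and *rhy* overlapped. With the TPM of the read-sharing model added to that of *KCNA7A_1*, the ratio to *KCNQ5A* was 323 to 802 in *com*, 191 to 309 in the hybrids and 552 to 1256 in *rhy*, so the hybrids were lowest and *com* and *rhy* overlapped.

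On the log2 scale the ratio of *KCNA7A_1* to *KCNQ5A* differed by -2.12 between *rhy* and *com* and by -2.18 between the hybrids and *com* (exact two-sided permutation test over fish, p = 0.00794 and adjusted p = 0.0119 over 9 comparisons for both). Between *rhy* and the hybrids the ratio differed by 0.05 (exact permutation p = 0.873), and leaving out 1 fish at a time moved this value from -0.12 to 0.18. The members' changes between *rhy* and the hybrids were -2.93 each, and the difference in ratio was smaller than the spread between fish of either group (SD 0.51 in *rhy* and 0.29 in the hybrids). For the sum with the read-sharing model, an alternative added after the data were seen, the log2 ratio to *KCNQ5A* turned to 1.05 between *rhy* and *com* (exact permutation p = 0.0317, adjusted p = 0.0408), stayed negative at -0.90 between the hybrids and *com* (exact permutation p = 0.00794, adjusted p = 0.0143) and was 1.95 between *rhy* and the hybrids (exact permutation p = 0.00794, adjusted p = 0.0143). The order of the groups thus differed between *KCNA7A_1* as RSEM counted it and the sum, which also holds the other model's own reads. The part of the division of shared reads in this difference was not tested.

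The level of each member was also set against *SCN4AA*, which itself fell by 1.73 between *rhy* and *com* (adjusted p = 6.08e-07, edgeR). *KCNA7A_1* was at 0.777 to 1.23 times the TPM of *SCN4AA* in *com*, 0.292 to 0.348 times in the hybrids and 0.076 to 0.153 times in *rhy*. Its log2 ratio to *SCN4AA* differed by -3.28 between *rhy* and *com*, by -1.82 between the hybrids and *com* and by -1.46 between *rhy* and the hybrids, each with an exact permutation p of 0.00794 (adjusted p = 0.0119). The groups did not overlap in this ratio, which again uses the shared reads as RSEM divided them. For the sum with the read-sharing model the ratio to *SCN4AA* was 2.14 to 2.71 in *com*, 1.56 to 1.80 in the hybrids and 2.10 to 2.67 in *rhy*. The log2 difference of the summed ratio between *rhy* and *com* was then -0.10 (exact permutation p = 0.246, adjusted p = 0.246), with overlap. The hybrids were lowest, by -0.54 against *com*, and *rhy* was 0.44 above them (exact permutation p = 0.00794, adjusted p = 0.0143 for both).

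The log2 ratio of *KCNQ5A* to *SCN4AA* differed by -1.16 between *rhy* and *com* (exact permutation p = 0.0159, adjusted p = 0.0204), with overlap of the groups, and by -1.51 between *rhy* and the hybrids (exact permutation p = 0.00794, adjusted p = 0.0119), without overlap. Between the hybrids and *com* it differed by 0.36 (exact permutation p = 0.238, adjusted p = 0.268). In com104 *SCN4AA* was at 4975 CPM against 2623 to 3301 CPM in the other *com* fish, and that fish also had the highest *KCNQ5A*. *TMOD4*, a gene of the muscle thin filament, fell by 1.04 between *rhy* and *com* (adjusted p = 0.000218, edgeR). *KLHL30*, the other muscle gene chosen here, went the other way, with 124.7 ± 36.9 CPM in *com* and 193 ± 24.1 CPM in *rhy* (SD, n = 5 each). Further muscle genes in the study's tables were not examined here. Its log2 difference was 0.63 (adjusted p = 0.00322, edgeR), inside the fold limit. The *com* mean includes 190 CPM in com104, against 98.2 to 113 CPM in the other *com* fish. The part of muscle transcripts in the levels of both channels was not tested.

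The list of other ion channel and transporter genes drawn from the study's tables held 10, and all 10 were tested. Other receptors named there were not listed. *CPNE7*, which the study places under transmembrane ion transport, and a model matched to pannexin 1 were not listed either. Between *rhy* and *com*, 3 were called higher in *rhy*, 6 lower and 1 was not called, with a median log2 fold change of -1.78 against -0.02 over all genes. Either direction was called for 22.8% of all genes, but the study drew these genes from candidate lists made with these libraries. Between the hybrids and *com*, 2 were called higher and 2 lower, with a median of -0.46 against 0.03 over all genes, of which 9.08% were called. Between *rhy* and the hybrids, 2 were called higher and 2 lower, with a median of -0.06 against -0.05 over all genes, of which 12.1% were called.

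The genes lower in *rhy* were *SCN4AA*, *GRIA3*, *NALCN*, *CACNA2D1*, *CACHD1* and *SLC8A1*. *GRIA3*, a subunit of AMPA-type glutamate receptors, fell by 2.79 between *rhy* and *com* (adjusted p = 1.52e-09, edgeR), from 39.1 to 49.6 CPM in *com* to 5.62 to 7.44 CPM in *rhy*. Like *KCNA7A_1* it was called between all 3 pairs of groups, just past the fold limit between the hybrids and *com*, with 17.4 to 27.5 CPM in the hybrids and no overlap. *NALCN*, a sodium leak channel, fell by 1.83 (adjusted p = 0.00327) with overlapping groups. *CACNA2D1*, an auxiliary subunit of calcium channels, fell by 3.52 between *rhy* and *com* (adjusted p = 0.000964) and changed by -3.30 between the hybrids and *com* (adjusted p = 0.00351). *CACNA2D1* had 0 to 17 counts in *rhy* (median 2) and 2 to 21 in the hybrids, against 31 to 65 in *com*, so its fitted folds rest on few counts. The same holds for *CACHD1* and *SLC8A1*, a sodium-calcium exchanger, with medians of 2 and 0 counts in *rhy*.

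The genes higher in *rhy* were *KCNJ2*, *SLC24A2* and *ATP13A2*. *KCNJ2*, an inward rectifier potassium channel that helps set the resting potential, differed in the opposite direction from both members. It was at 110 to 374 CPM in *com*, 342 to 455 CPM in the hybrids and 1534 to 2572 CPM in *rhy*, and rose by 3.41 between *rhy* and *com* (adjusted p = 1.99e-07, edgeR). Its TPM exceeded that of *KCNA7A_1* in all 5 *rhy* fish, with 1149 to 1802 TPM against 40.1 to 71.3 TPM, and was below it in all 5 *com* fish, with 76.2 to 257 TPM against 1293 to 1722 TPM. In the hybrids *KCNJ2* was at 259 to 339 TPM and *KCNA7A_1* at 319 to 460 TPM. The gap in *rhy* uses the shared reads as RSEM divided them, and the part of that division in it was not tested. The sum of *KCNA7A_1* and its read-sharing model was at 830 to 1244 TPM there. *KCNJ2* exceeded that sum in 4 of 5 *rhy* fish. *SLC24A2*, a potassium-dependent sodium-calcium exchanger, rose by 2.33 between *rhy* and *com* (adjusted p = 5.17e-05) and *ATP13A2*, a lysosomal transport ATPase, by 1.66 (adjusted p = 2.44e-06). *PKD1*, polycystin, with a difference of 0.71 (adjusted p = 0.000152), was inside the fold limit.

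**Figure D4:**
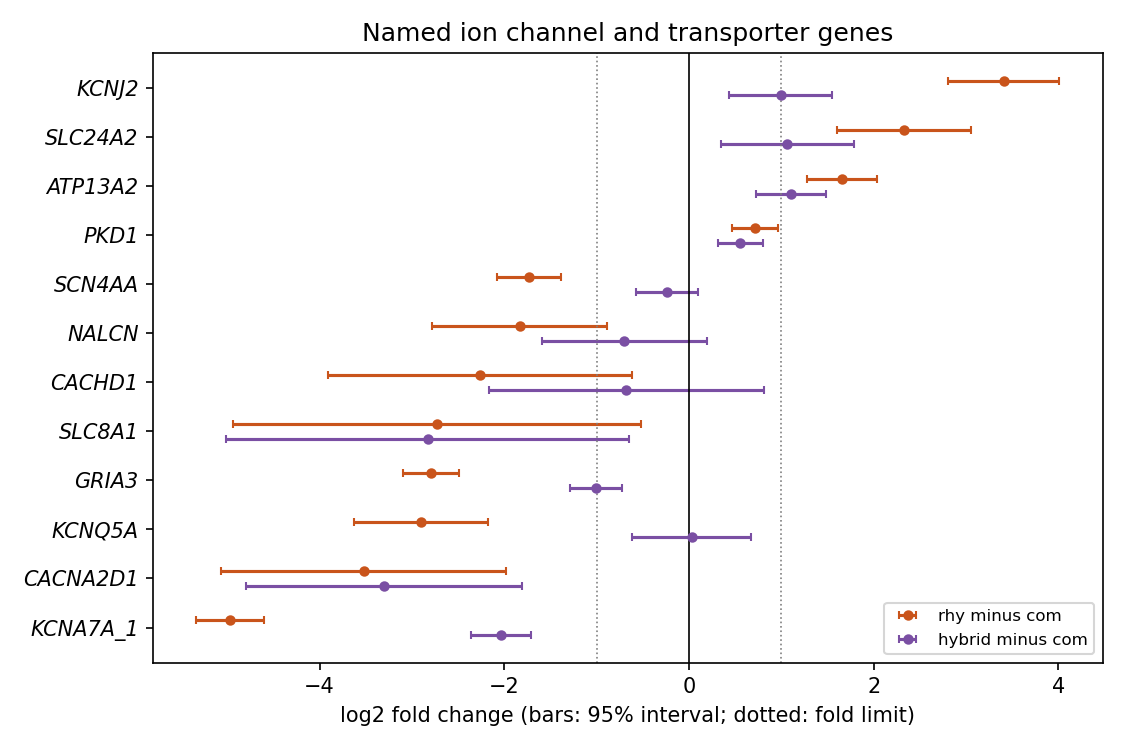
Log2 fold changes with 95% intervals of both members and 10 other named ion channel and transporter genes, for *rhy* minus *com* and hybrid minus *com*. *KCNA7A_1* has the most negative value of *rhy* minus *com* among these genes, at -4.97, and *KCNJ2* the most positive, at 3.41.

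Likeness of profile was measured as the root mean square difference of log2 CPM over the 15 fish, after centring each gene on its own mean, and it carries no test. Among genes with a legible name in the study's tables, those nearest to *KCNA7A_1* were *GRIA3* (0.95, rank 97 of 18488 genes), *PDE6A*, a phosphodiesterase subunit known from rod photoreceptors (0.97, rank 108), and *TRIM39* (0.997). *PDE6A* had at most 2 counts and *TRIM39* at most 1 in any *rhy* library, so their places rest partly on the prior count. *PDE6A* was not among the nearest named genes with a prior count of 0.5. *TRIM39* was not called between the hybrids and *com* (-0.39). The nearest unnamed model was maker-ptg000863l-augustus-gene-4.71 (0.49), at 80.2 to 150.2 CPM in *com*, 25.3 to 54.01 CPM in the hybrids and 3.13 to 9.05 CPM in *rhy*. It was the nearest with a prior count of 2 only, and with 0.5 another unnamed model, maker-ptg000233l-snap-gene-3.174, was nearest (0.48).

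For *KCNQ5A* the nearest named genes were *GALNT7*, a glycosyltransferase (0.65, rank 31), *SCN4AA* (0.70, rank 64) and *GRIA3* (0.74, rank 89). Of all genes the nearest was the unnamed model maker-ptg000697l-snap-gene-6.109 (0.39), which has the contig of *KCNQ5A* and also its number 6 in its identifier. Whether this model and *KCNQ5A* are parts of the same gene was not tested. The number 6 is shared by 8 of the 10 other tested models on that contig. The unnamed model was at 80.1, 27.98, 39.01, 43.8 and 46.1 CPM in com104, com121, com123, com124 and com125, at 28.8 to 37.5 CPM in the hybrids and at 3.37 to 10.3 CPM in *rhy*. It was highest in com104, as *KCNQ5A* was, and like *KCNQ5A* it was called lower in *rhy* than in *com* and in the hybrids and not between those. *KCNQ5A* itself was at rank 251 from *KCNA7A_1* (1.14), and *KCNA7A_1* at rank 1869 from *KCNQ5A*.

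**Figure D5:**
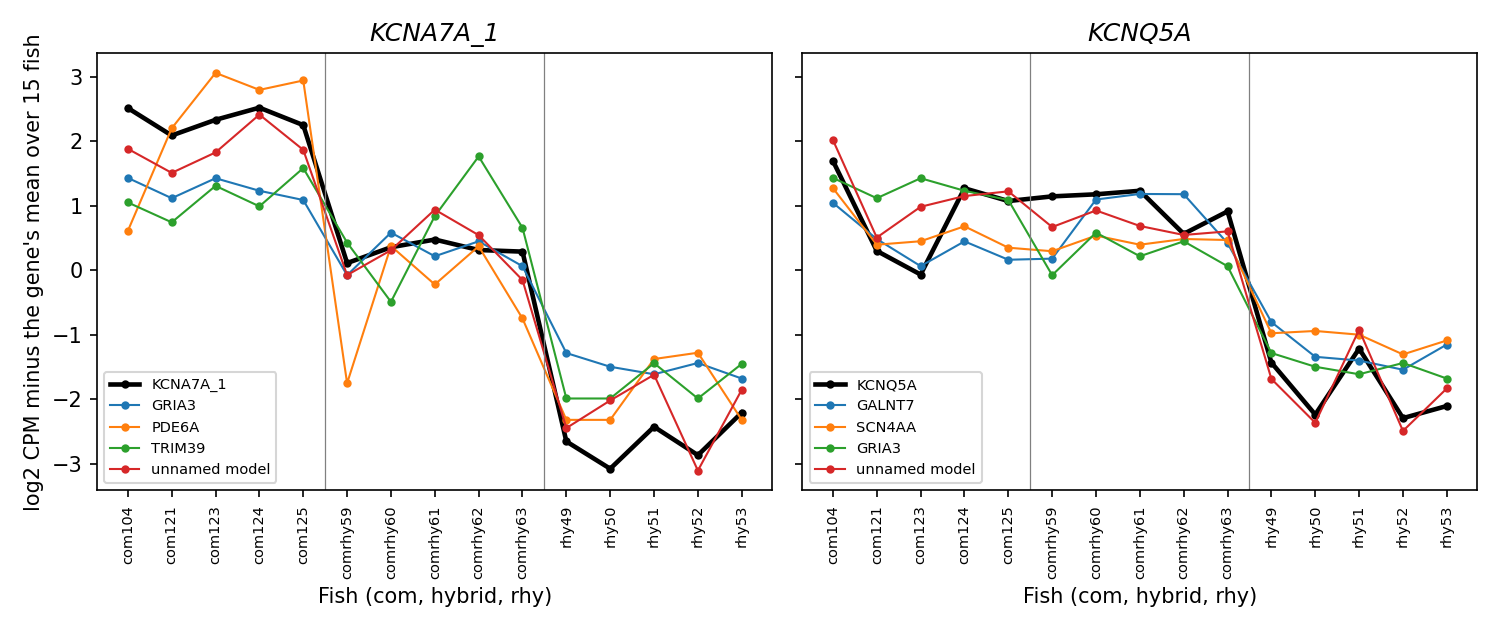
Log2 CPM of each member and its nearest genes in each of 15 fish, after subtracting each gene's mean over the fish. *KCNA7A_1* runs in 3 steps from *com* to hybrids to *rhy*, and *KCNQ5A* in a single step between the hybrids and *rhy*, with its unnamed nearest model following the rise in com104.

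The identifiers place each model on a contig but the files give no positions. Of 245 other tested models on the contig of *KCNA7A_1*, 29 (11.8%) were called lower in *rhy* than in *com* and 13 (5.31%) higher, against 13.1% and 9.75% of all genes. Only 5 of them had a more negative log2 fold change than *KCNA7A_1*. *BRSK2*, a kinase, and *NOG2*, a noggin gene, are the named genes on that contig, and neither was called between *rhy* and *com* (adjusted p = 0.527 and 0.0722, edgeR). The 5 other tested models that share the number 81 with *KCNA7A_1* in their identifiers, the read-sharing model among them, had log2 fold changes of -5.46 to -1.07 and were all called lower in *rhy*. They were looked at after the read sharing was seen. Of the 10 other tested models on the contig of *KCNQ5A*, 2 were called lower in *rhy* than in *com*, the nearest unnamed model being 1 of them.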

How the data were processed

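The authors captured poly(A) RNA, built strand-specific libraries, trimmed reads with Trimmomatic (version 0.39) and counted them with RSEM, using gene models of *C. compressirostris*. The deposited expected counts are RSEM's estimates, not normalized, in which a read that maps to several models is divided among them. The deposited TPM values were scaled by effective length and to a common total per library in the authors' RSEM run, and the deposited FPKM values were not used. Model lengths of both members are multiples of 3. The aligner inside RSEM is not given in the sources used here.

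Expected counts were rounded, and a gene was kept if 2 or more libraries had over 10 counts (18489 of 34492 models). All 15 libraries were fitted with 1 coefficient per group in edgeR 4.0.16 under R 4.3.3, with TMM scaling and quasi-likelihood tests, adjusted by Benjamini-Hochberg over all genes tested. CPM are TMM-scaled, and log2 CPM for likeness used a prior count of 2. Log2 TPM ratios used no pseudocount and exact two-sided permutations over fish. The steps were tested on simulated data: between *rhy* and *com*, changes of 1.5 on the log2 scale were recovered for 82% and changes of 3 for 100% of 100 changed genes each. As alternatives, the fits were repeated with DESeq2 1.42.0, with its size factors, library totals, other filters, an offset for effective length, limma 3.58.1 on log2(TPM + 0.1), only the groups compared, no fold limit and leaving out each fish. Summaries and plots were made in Python 3.11.15 with pandas 2.3.3, numpy 2.4.6, matplotlib 3.10.9 and scipy 1.17.1.

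The labels do not say whether fish of a group came from separate clutches, so fish of a group may be siblings. The p-values judge differences between groups against the spread between these fish only. Whether the differences hold in other clutches was not tested. The members, the lists and the rule for named genes were chosen with earlier results of these data known. Named are the members and 10 other ion channel and transporter genes of the study's tables. For each member the 3 nearest genes with a legible name and the nearest unnamed model are named. Named genes on the same contig are given as well. All 152 models of these tables that could be matched by identifier were in the files. The identifier printed there for *KCNA7A_1* carries a character error and was matched to the only model that completes it. Names of other models, including any other *KCNA7A* copy, were not used here.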

Additional observations from a re-analysis of the deposited data

Results flagged for a closer look

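In groups of 5 fish, a value was singled out when its gap to the nearest other fish, divided by the whole range, exceeded Dixon's critical value of 0.71. Chance does so in about 1 of 20 groups, and 2 of 21 groups were singled out here. The model that shares reads with *KCNA7A_1* was at 2022 CPM in com104, against 1041 to 1211 CPM in the other *com* fish. The same fish had the highest *KCNQ5A*, with 16.3 CPM. It was also highest in *SCN4AA*, with 4975 CPM against 2623 to 3301 CPM in the other *com* fish. For *KCNJ2* it was at 374 against 110 to 175 CPM, and for *KLHL30* at 190 against 98.2 to 113 CPM. The CPM of *SCN4AA*, *KCNJ2* and *KLHL30* were not among the groups examined by this rule. *KCNA7A_1* was at 1147 CPM in com104, close to the highest *com* value of 1151 CPM in com124, and *TMOD4* was not highest in com104. *NALCN* was lowest there, with 2.19 CPM against 3.37 to 10.1 CPM in the other *com* fish. *PDE6A* was lowest there too, with 1.01 against 3.33 to 6.17 CPM. The log2 TPM ratio of *KCNA7A_1* to *SCN4AA* was -1.52 in comrhy61, against -1.78 to -1.76 in the other hybrids.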

How the results depend on the processing

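No paired analysis was possible because the groups share no replicate numbers. The calls of *KCNA7A_1* and *KCNQ5A* in the 3 pairwise contrasts stayed as reported under every listed alternative other than the sum below, and the only one that changed a member's call was dropping the fold limit, which let the 0.45 of *KCNA7A_1* above the parental log2 mean pass. Without that limit the genes called numbered 8403 (*rhy* minus *com*), 4041 (hybrid minus *com*), 5283 (*rhy* minus hybrid), 2411 (hybrid minus parental mean) and 7830 (*rhy* minus the mean of *com* and hybrid), against 4223, 1678, 2235, 839 and 3215. Summing *KCNA7A_1* with its read-sharing model, chosen after the data were seen, turned hybrid minus *com* into -0.77, no longer called. The same sum turned the log2 ratio to *KCNQ5A* to 1.05 (*rhy* minus *com*) and 1.95 (*rhy* minus hybrid, now passing), and the ratio to *SCN4AA* to -0.10 (*rhy* minus *com*, no longer passing) and 0.44 (*rhy* minus hybrid). Leaving out 1 fish at a time, *KCNA7A_1* ranged from -5.09 to -4.87 and *KCNQ5A* from -3.12 to -2.65 for *rhy* minus *com*. The uncalled difference of *KCNQ5A* between hybrids and *com* ranged from -0.14 to 0.28, crossing 0 without com121, com123, comrhy59, comrhy60 or comrhy61. The uncalled *rhy* minus hybrid difference in the ratio of *KCNA7A_1* to *KCNQ5A* ranged from -0.12 to 0.18, crossing 0 without rhy52, rhy53 or comrhy59, and was -0.052 with a pseudocount of 0.1 TPM. With a prior count of 0.5, 5 of the 6 named nearest genes and the unnamed model nearest to *KCNQ5A* were the same, while that nearest to *KCNA7A_1* changed. Depth limits *KCNQ5A* in *rhy*, where 91 counts in 5 libraries carry the level.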
